A study of Saccharomyces cerevisiae with 4 samples.

Results

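Genes of the yeast general stress response, 8 in all, were compared between galactose-grown and glucose-grown cells: MSN2, MSN4, RIM15, YAK1, GIS1, HOT1, IGO1 and IGO2. They were chosen by name, and every Affymetrix probe set whose platform annotation gives 1 of these symbols alone was taken. This gave 10 probe sets for 8 genes, out of 6504 probe sets that name a single gene and 9275 in all after array controls were left out. YAK1 is read by 3 probe sets and each other gene by 1. The samples were total RNA of Saccharomyces cerevisiae ATCC 4126, grown in rich medium (YP) with galactose or with glucose and taken at an optical density of 1.0. No gene deletion or further treatment is given in the labels. There were 4 arrays, galactose B and galactose C against glucose A and glucose B.

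In yeast, Msn2 and Msn4 are related zinc finger factors that bind the stress response element in the promoters of many protective genes. Protein kinase A, which is active when glucose is plentiful, keeps them out of the nucleus and also restrains the kinases Rim15 and Yak1. When nutrients run short, Rim15 phosphorylates the small proteins Igo1 and Igo2, which then inhibit a form of the phosphatase PP2A, and the zinc finger factor Gis1 acts on genes of the diauxic shift and stationary phase. Hot1 is a transcription factor that works with the kinase Hog1 under osmotic stress. Much of this control acts on protein phosphorylation and location, which arrays do not measure.

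Each array gives 1 linear intensity per probe set, and array medians lay between 108 and 117. The medium labels were checked on GAL1, GAL2, GAL7 and GAL10, and 4 of these 4 genes rose in galactose (adjusted p at most 0.00207, limma's moderated test with the Benjamini-Hochberg adjustment over 7302 probe sets). The galactose arrays differed from each other at least 2-fold at 929 probe sets and the glucose arrays at 313. Across the media, galactose C differed from glucose B at 1407 and from glucose A at 834. Galactose B differed from glucose A at 670 and from glucose B at 448, so it lay nearer to both glucose arrays than to galactose C by this count. Whether the letters mark separate cultures is not in the labels, so p-values measure only the spread between these samples, and that spread may be technical. The signal ratio of the 3′ to the 5′ control probe set of actin (ACT1) was 2.41 and 1.88 on the galactose arrays and 1.10 and 1.49 on the glucose arrays. Here and below, single values come in the order B, C for galactose and A, B for glucose. This ratio, a measure of RNA and labelling quality, was thus higher on both galactose arrays. The control for YER022W was likewise higher there (27.2 and 26.6, against 10.3 and 21.6), while that for YER148W did not separate the media (1.91 and 1.88, against 2.13 and 1.38). The part of these ratios in the results below was not tested.

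None of the 8 genes passed the test between the media. All 10 probe sets lay above the intensity floor of 18.5 on all 4 arrays, all 10 were tested, and 0 passed by limma at an adjusted p under 0.05, with adjusted p between 0.592 and 0.954. At an unadjusted limma p under 0.05 the count was also 0, where 8.61% of all tested probe sets were under it. By adjusted p, 0.794% of all tested probe sets passed as higher in galactose and 0.0411% as lower. A count of 0 passing among 10 is near that background. For 4 of the 10 both galactose arrays exceeded both glucose arrays (background 17.5%), and for 2 both were below (background 22.7%). Those above were RIM15, IGO1 and 2 of the YAK1 probe sets, and those below were MSN4 and HOT1. The median log2 difference was 0.20 over the 10 probe sets and -0.01 over all 7302. YAK1 enters this median once for each of its probe sets, so it is not a median over genes. By gene, MSN2, MSN4, HOT1 and IGO2 lay below 0, and RIM15, YAK1, GIS1 and IGO1 above 0. With 2 arrays per medium the intervals given below are wide, and a missed threshold does not show that levels were alike.

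**Figure D1:**
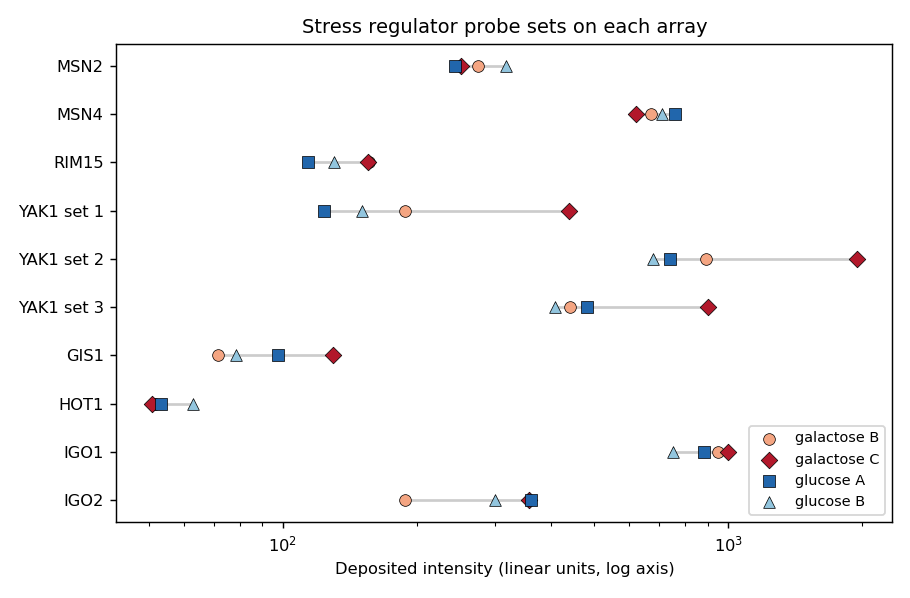
Deposited intensity of each of the 10 probe sets (rows, with the 3 YAK1 probe sets in the order 11151_at, 11152_g_at and 11153_at) on the 4 arrays, on a log axis; points are single arrays and grey lines span the lowest to the highest. Galactose C is the highest array for all 3 YAK1 probe sets (440, 1947 and 900), while MSN2 spans only 243 to 317.

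MSN2 (YMR037C), the factor gene usually described as constitutively expressed, gave 275 and 251 on the galactose arrays and 243 and 317 on the glucose arrays. Both galactose values fell inside the range of the glucose arrays. The fitted ratio of galactose to glucose was 0.945 (95% interval 0.581 to 1.54, adjusted p = 0.954).

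MSN4 (YKL062W), its paralog, known as the stress-inducible one of the pair, gave 671 and 620 on the galactose arrays and 761 and 711 on the glucose arrays. Both galactose arrays were below both glucose arrays, by little: the means were 645 ± 36.2 and 736 ± 35.3 (SD, n = 2 per medium here and below). The fitted ratio was 0.877 (95% interval 0.589 to 1.30, adjusted p = 0.835 in limma). Of the 7302 tested probe sets, 60.1% had a difference between the media at least as large in size. The arrays of each medium lay close together, at a ratio of 0.924 for galactose C over B and 1.07 for glucose A over B. An intensity comes from the RNA of many cells together, so that fewer cells with a transcript and less transcript per cell cannot be told apart. It is also relative to all RNA on its array.

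RIM15 (YFL033C), the kinase of entry into quiescence, gave 156 and 155 in the galactose samples and 114 and 130 in the glucose samples. Both galactose arrays were above both glucose arrays, and the galactose values were nearly equal. The means were 156 ± 0.492 in galactose and 122 ± 11.5 in glucose, a fitted ratio of 1.28 (95% interval 0.815 to 2.01, adjusted p = 0.747). This difference stayed between 0.26 and 0.45 on the log2 scale when any 1 array was left out or another setting of the fit was used. It passed in none of the fits of all 4 arrays.

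YAK1 (YJL141C), a kinase that opposes protein kinase A in the control of growth, varied most among the 8 genes. Probe set 11151_at gave 188 on galactose B and 440 on galactose C, with 123 and 151 on the glucose arrays. Probe set 11152_g_at stood at 893 and 1947 in galactose and at 742 and 679 in glucose. Probe set 11153_at stood at 440 and 900 in galactose and at 482 and 409 in glucose. On all 3 probe sets galactose C was the highest array, whereas galactose B lay above both glucose arrays on the first and second and between them on the third. The 3 probe sets read the same RNA on the same arrays and are not independent of each other.

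The fitted ratios of galactose to glucose for YAK1 were 2.11 (95% interval 0.893 to 4.98, adjusted p = 0.592), 1.86 (0.863 to 3.997, adjusted p = 0.626) and 1.42 (0.677 to 2.97, adjusted p = 0.769) on the probe sets in that order. Galactose C carried most of the difference. Relative to the glucose mean, galactose C stood at 3.21, 2.74 and 2.02 times, and galactose B at 1.37, 1.26 and 0.988 times. With galactose C left out, the log2 differences of 1.08, 0.89 and 0.50 became 0.46, 0.33 and -0.01. With galactose B left out they became 1.69, 1.46 and 1.02, and with the 3 probe sets averaged into 1 value the log2 difference was 0.82 (adjusted p = 0.715).

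**Figure D2:**
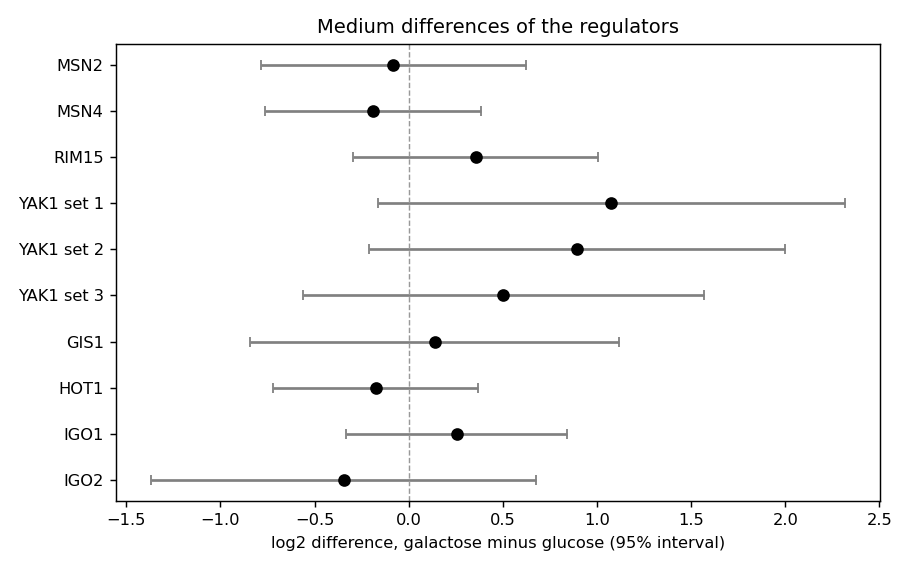
Fitted log2 difference of galactose minus glucose for each of the 10 probe sets (rows) with its 95% interval from limma, 2 arrays per medium; the dashed line marks no difference. Every interval spans 0, from the YAK1 probe set 11151_at at 1.08 (-0.16 to 2.32) to IGO2 at -0.35 (-1.37 to 0.68).

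GIS1 (YDR096W), which also carries a JmjC domain and acts downstream of Rim15, gave 71.6 on galactose B and 129 on galactose C, with 97.6 and 78.5 on the glucose arrays. Galactose C was the highest array and galactose B the lowest, with both glucose arrays between them. The fitted ratio was 1.10 (95% interval 0.558 to 2.17, adjusted p = 0.937), and its log2 difference of 0.14 turned to -0.29 once galactose C was left out and to -0.02 once glucose B was.

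HOT1 (YMR172W) gave 51.7 and 50.8 on the galactose arrays and 53.3 and 62.9 on the glucose arrays. Both galactose arrays were below both glucose arrays, but the gap from galactose B to glucose A was smaller than that between the glucose arrays. The fitted ratio was 0.885 (95% interval 0.607 to 1.29, adjusted p = 0.838).

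The paralogs IGO1 and IGO2 encode the Rim15 substrates, which resemble animal endosulfines. IGO1 (YNL157W) gave 946 and 997 on the galactose arrays and 883 and 751 on the glucose arrays, so that both galactose arrays were above both glucose arrays. The fitted ratio was 1.19 (95% interval 0.794 to 1.79, adjusted p = 0.774). IGO2 (YHR132W-A) gave 188 on galactose B and 357 on galactose C, with 361 and 299 on the glucose arrays. Here galactose B alone was low, and galactose C lay between the glucose arrays. The fitted ratio was 0.787 (95% interval 0.387 to 1.60, adjusted p = 0.831), and the log2 difference of -0.35 was -0.81 without galactose C and 0.12 without galactose B. Whether the paralogs differ from each other in their response was not tested.

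The next comparisons ask how far the arrays of 1 medium differed, which has no replicate check since each sets 1 array against 1. On the galactose arrays, 3 of the 10 probe sets stood at least 2-fold higher on C than on B, against a background of 5.94%, and 0 stood at least 2-fold lower, against 6.78%. The 3 were those of YAK1, at 2.34, 2.18 and 2.04 times. IGO2 stood 1.90 times and GIS1 1.81 times higher on C, just short of that fold. The other 5 were close on both arrays, from 0.912 times (MSN2) to 1.05 times (IGO1). The median log2 difference of C minus B was 0.47 over the 10 probe sets and -0.02 over all tested. YAK1 supplies 3 of the 10 values, so this median is not taken over genes. Whether the regulators shifted as a group was not tested.

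On the glucose arrays, 0 of the 10 probe sets differed 2-fold, against a background of 4.29%. Their ratios of glucose A to glucose B ran from 0.767 for MSN2 to 1.24 for GIS1. In size, the median log2 difference between the glucose arrays was 0.24 for the 10 probe sets and 0.25 over all tested. The corresponding sizes between the galactose arrays were 0.49 and 0.38. YAK1 enters the medians of the 10 once for each of its probe sets, so they are not medians over genes. Between the galactose arrays, MSN2, MSN4, RIM15, HOT1 and IGO1 each differed by less than 0.38 in size, and YAK1, GIS1 and IGO2 by more.

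Of the 10 probe sets, the YAK1 probe set 11151_at had the widest range over the 4 arrays, 1.83 on the log2 scale. The 3 probe sets of other single genes with the nearest pattern were those of RRT8 (distance 0.248), YLR177W (0.251) and PTK2 (0.271), out of 5979 compared. PTK2 encodes a protein kinase that activates the plasma membrane proton pump. The distance is Euclidean, between log2 values centred on their mean over 4 arrays. RRT8 gave 474 and 1406 on the galactose arrays and 343 and 412 on the glucose arrays. The YAK1 probe set 11152_g_at lay at a distance of 0.354, with 5 probe sets of other genes at least as near, and 11153_at at 0.697, with 79. With only 4 arrays such likeness is a description.

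**Figure D3:**
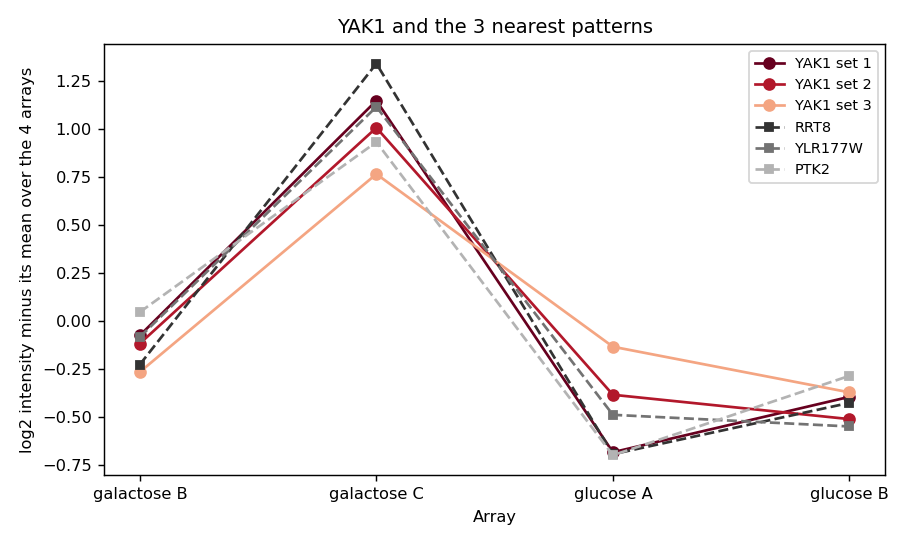
log2 intensity minus its mean over the 4 arrays (vertical axis) on each array (horizontal axis), for the 3 YAK1 probe sets (solid lines, in the order 11151_at, 11152_g_at and 11153_at) and for RRT8, YLR177W and PTK2 (dashed lines). All 6 lines peak on galactose C, and the third YAK1 probe set has the flattest line, from 409 to 900 in intensity.

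Genes reported as targets of Msn2 and Msn4 did not pass singly either. Of 26 listed and tested genes, 0 rose and 0 fell in galactose by limma over all probe sets. Among all 5403 single genes tested 12 rose and 2 fell, so 0 is near that background here and in the lists below. An unadjusted limma p under 0.05 was found for 3 of the 26, as for 6.46% of single genes. Both galactose arrays were above both glucose arrays for 8 of the 26, where 15.1% of all single genes tested were, and below them for 1, where 23.6% were. The 3 brightest were HSP12, a membrane-protecting small heat shock protein gene, PGM2, a phosphoglucomutase gene, and PNC1, a nicotinamidase gene. With galactose first, HSP12 measured 16957 ± 4426 against 15224 ± 1943 (adjusted p = 0.912). PGM2 measured 8042 ± 3068 against 3960 ± 201 (adjusted p = 0.533), and PNC1 at 5928 ± 2095 and 4196 ± 323 (adjusted p = 0.738). PGM2 is also known to answer to galactose itself. The 1 gene apart downward was HXK1, which encodes a hexokinase and was picked with its values in view; it measured 2728 ± 1203 against 4184 ± 428 (adjusted p = 0.663).

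The reported targets of Msn2 and Msn4 stood, for the most part, higher on galactose C than on the other arrays. For 25 of the 26, galactose C was above galactose B, as for 49.0% of the 5403 single genes tested. For 14 it was at least 2-fold above, as for 7.01% of single genes. For 0 of them was C at least 2-fold below B, where 6.92% of single genes were, and C was the highest of the 4 arrays for 24, as for 30.9% of single genes. Set against the glucose mean, the list had a median log2 value of 0.02 for galactose B and of 1.10 for galactose C. The median difference between the media, 0.57, against -0.03 over all single genes, was therefore 0.02 without galactose C; it was 0.28 without glucose B. SSA4, an inducible Hsp70 gene picked with its values in view, stood at 523 on galactose B and 1397 on galactose C, and at 246 on both glucose arrays (adjusted p = 0.426).

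The glucose arrays also differed at these genes. Glucose A was above glucose B for 22 of the 26 reported targets of Msn2 and Msn4, as for 43.4% of single genes, and at least 2-fold above it for 4, as for 3.42%. None of the 26 was at least 2-fold below, where 1.13% were. The small heat shock protein gene HSP26, chosen after its values were seen, gave 839 and 125 on the glucose arrays and 230.2 and 1059 on the galactose arrays. The arrays of each medium thus differed more for HSP26 than the means of the media did, at 644 ± 586 and 482 ± 504.

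Genes reported as Gis1 targets differed widely between the arrays of each medium. The list has 7 genes, of which HSP12, HSP26 and CTT1 are also among the reported targets of Msn2 and Msn4. In the comparison of the media 0 of 7 passed in either direction, where 12 of 5403 single genes rose and 2 fell. Of the 7, 0 were apart, where 15.1% of single genes were apart upward and 23.6% downward. On galactose C 5 of 7 were at least 2-fold above galactose B, and on glucose A 5 of 7 at least 2-fold above glucose B, where 7.01% and 3.42% of single genes were. The list's median log2 difference was 1.66 for galactose C minus B and 1.90 for glucose A minus B, against 0.14 between the media. Its median relative to the glucose mean was -0.49 for galactose B and 0.58 for galactose C. The median between the media became 1.00 when glucose A was left out and -0.76 when glucose B was, so that its direction turned with the array. SPI1, a cell wall protein gene of stationary phase, gave 1362 and 4299 on the galactose arrays and 5253 and 2348 on the glucose arrays. SIP18, a phospholipid-binding protein gene of the desiccation response, stood at 1127 and 5212 in galactose and at 3710 and 993 in glucose. For both, the high array of each medium lay above the low array of the other, so that the media overlapped.

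Among 5 genes reported as Hot1 targets, 0 passed, 1 was apart upward (background 15.1%) and 0 downward (23.6%). Galactose C was above galactose B for 5 of 5 (background 49.0%), and at least 2-fold above for 3 (background 7.01%). The brightest were GPD1, the glycerol phosphate dehydrogenase gene (2458 and 4602 in galactose, 3202 and 2567 in glucose), RTC3 (1351 and 4756, against 2521 and 1770) and NQM1, a transaldolase gene (647 and 2630, against 1826 and 765). GPD1 is also in the list of Msn2 and Msn4 targets. STL1, the glycerol importer gene best known as a Hot1 target and chosen after its values were seen, stood at 31.5 and 115 in galactose and at 58.5 and 37.5 in glucose. The list's median log2 difference was 0.26 between the media, from -0.57 for galactose B and 1.15 for galactose C against the glucose mean, and 1.82 for galactose C minus B. Between the media it became 0.68 without glucose A and 0.04 without glucose B.

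**Figure D4:**
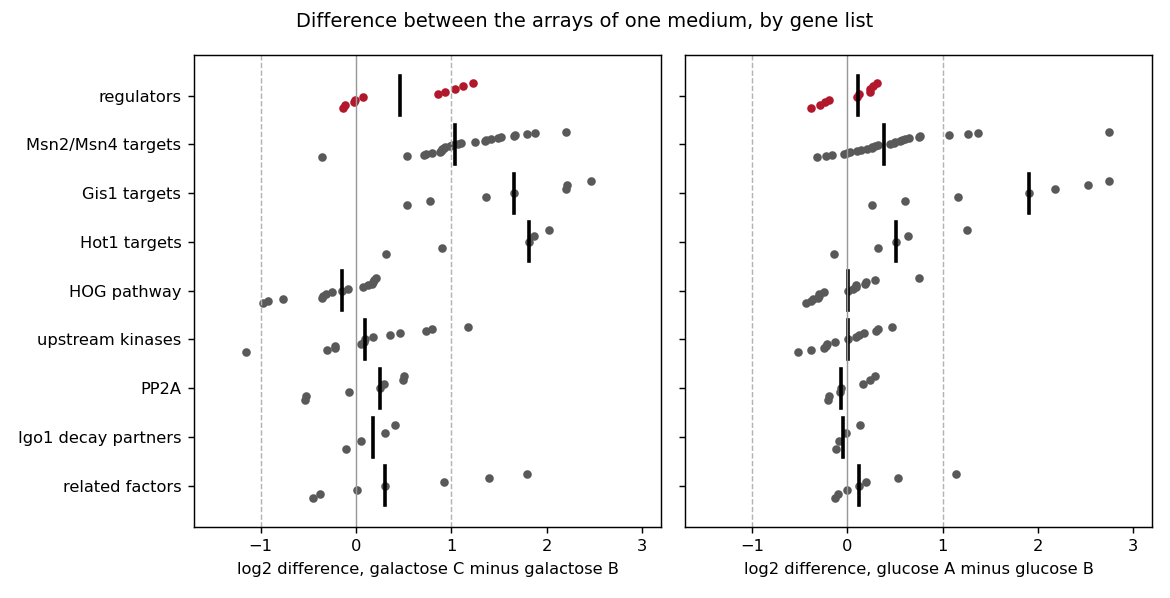
log2 difference between the 2 arrays of a medium, galactose C minus B (left) and glucose A minus B (right), for the 10 regulator probe sets (red) and for the genes of each list (grey points, 1 per gene); short vertical bars are medians and dashed lines mark 2-fold. The Msn2/Msn4 target list has medians of 1.04 and 0.39, the Gis1 list 1.66 and 1.90, and the HOG pathway list -0.15 and 0.01.

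Genes of the signalling pathways around the regulators did not pass either, where 12 of 5403 single genes rose and 2 fell. Of 15 genes of the HOG osmosensing pathway, which acts through Hot1 and other factors, 0 passed, 4 were apart upward (background 15.1%) and 1 downward (23.6%). Between the galactose arrays 0 differed 2-fold, where 7.01% of single genes were higher on C and 6.92% lower. The kinase gene HOG1 measured 1792 ± 142 against 1572 ± 227 (adjusted p = 0.837), the sensor gene MSB2 at 1439 ± 250.4 and 863 ± 309 (adjusted p = 0.592), and OPY2, a membrane anchor of the pathway, at 1001 ± 72.9 and 842 ± 82.1 (adjusted p = 0.779). The list's median log2 difference was 0.08.

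Of 13 kinases and partners upstream of Rim15 and Msn2 that were tested, 0 passed, with a median log2 difference of 0.02. Apart upward were 3 (background 15.1%), and 0 were apart downward (background 23.6%). The brightest were BMH1 and BMH2, whose products bind and retain phosphorylated proteins in the cytoplasm, and BCY1, the regulatory subunit of protein kinase A. BMH1 stood at 4244 ± 204 and 3569 ± 153 (adjusted p = 0.766), BCY1 at 1911 ± 731 and 1838 ± 420.3 (adjusted p = 0.995), and BMH2 at 1429 ± 500.2 and 1384 ± 122 (adjusted p = 0.999). TPK2 and TPK3, which encode catalytic subunits of protein kinase A and were chosen after their values were seen, went opposite ways between the galactose arrays. TPK2 stood at 464 on B and 1045 on C, and TPK3 at 144 on B and 64.6 on C, with glucose at 723 and 585 for TPK2 and at 138 and 163 for TPK3. These were the list's only 2 genes with a 2-fold difference between the galactose arrays. A count of 1 of 13 in each direction is near the background, 7.01% of single genes higher on C and 6.92% lower.

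Of 7 genes of the phosphatase PP2A and its regulators, 0 passed, 2 were apart upward (background 15.1%) and 0 downward (23.6%). Igo1 and Igo2 inhibit a form of PP2A, and the list is not limited to that form. The scaffold gene TPD3 stood at 1468 ± 353 and 1346 ± 41.4 (adjusted p = 0.928), the catalytic gene PPH21 at 1244 ± 176 and 1000 ± 142 (adjusted p = 0.765), and the regulatory gene RTS1 at 679 ± 83.9 and 660 ± 52.1 (adjusted p = 0.973). Of 4 genes for mRNA decay partners of Igo1, 0 passed, 3 were apart downward (background 23.6%) and 0 upward (15.1%). The brightest, PBP1, overlapped between the media, at 2199 ± 112 and 2280 ± 17.5 (adjusted p = 0.959). Among those apart downward were LSM12, at 505 ± 99.8 and 612 ± 25.1 (adjusted p = 0.774), and the helicase gene DHH1, at 480 ± 71.6 and 605 ± 33.6 (adjusted p = 0.749).

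Of 8 related factors and paralogs, 7 were tested and 0 passed, while RGM1, the 1 not tested, lay under the floor on all 4 arrays. Apart upward were 3 of the 7 (background 15.1%), and 1 was apart downward (background 23.6%). Galactose C was the highest array for 4 of the 7, as for 30.9% of single genes. USV1, a zinc finger factor gene, gave 601 and 1583 on the galactose arrays and 504 and 439 on the glucose arrays (adjusted p = 0.633). As for YAK1, galactose C was its highest array and galactose B lay nearer to glucose. HSF1, the heat shock factor gene, stood at 769 ± 170.1 and 534 ± 24.9 (adjusted p = 0.652), and POP2, a deadenylase gene and Yak1 substrate, at 378 ± 56.3 and 479 ± 29.7 (adjusted p = 0.749). Between the galactose arrays HSF1 went the opposite way to USV1, with 889 on B and 649 on C. RPH1, the paralog of GIS1 and chosen after its values were seen, gave 129 and 245 on the galactose arrays and 139 and 151 on the glucose arrays.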

How the data were processed

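The authors deposited 1 linear intensity for each probe set on each array; how they summarised, background-corrected and scaled it is not given in the sources used here, and no genome build is named, so no coordinates are printed. Array controls (60 probe sets) were dropped. Of the other 9275, 6504 name 1 gene, all matched by gene number to RefSeq's gene table of assembly R64.

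Intensities below 18.5, the 25th percentile of the pooled values, were raised to it before log2. Of the probe sets, 1973 never exceeded this floor and were dropped, and 7302 were tested. The media were compared with limma 3.58.1 in R 4.3.3 (lmFit, eBayes with an intensity trend, 4.73 total degrees of freedom, Benjamini-Hochberg, threshold 0.05); the steps were tested on simulated data. An exact permutation test of 2 arrays against 2 cannot go below p = 0.333. Ratios between media are fitted log2 differences turned back to a linear scale, and those between single arrays are quotients of intensities. In lists, each of 5403 tested genes is represented by its brightest probe set. Members and lists were chosen with earlier results of these data known. One further listed gene is not reported here. Named genes are the 8 members, the 3 brightest of each list, the reference and medium-check genes, the 3 with the pattern nearest to YAK1, and others stated to be picked with their values known; RGM1 is named as not tested and CTT1 as shared by lists. The alternatives were other normalizations, floors, filters and variance models, each array left out, and a mean over each gene's probe sets, which was added after the data were seen.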

Additional observations from a re-analysis of the deposited data

How the results depend on the processing

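None of the 8 genes passed under the 10 alternatives that fit all 4 arrays (lowest adjusted p = 0.564). The 4 fits with 1 array left out called 0 of 7302 probe sets, the GAL genes included, so they bear on direction only. Of 140 log2 differences 5 changed sign, all with 1 array left out. Over the arrays left out in turn, IGO2 ran from -0.81 to 0.12 (positive without galactose B), GIS1 from -0.29 to 0.56 (-0.29 without galactose C, -0.02 without glucose B), YAK1 on 11153_at from -0.013 to 1.02 (negative without galactose C) and MSN2 from -0.27 to 0.11 (positive without glucose B). The 58 probe sets higher in galactose became 25 under quantile normalization, 32 with a 10th percentile floor, 5 among probe sets of 1 gene and 5 with 1 row per gene, an alternative chosen after seeing the data; leaving out any 1 array gave 0 to 0. The 3 lower became 1 among probe sets of 1 gene and 1 with 1 row per gene, and 0 to 0 with an array left out. At 1.5-fold, 2395 probe sets differed between the galactose arrays and 1139 between the glucose arrays. The other settings kept these counts within 1.5 times. No paired analysis was possible because the media share only the letter B. Of the reference genes 0 of 5 passed; ACT1 measured 9777 ± 1042 in galactose, against 8213 ± 247 (adjusted p = 0.769). Having 2 arrays per medium limits the precision throughout.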
